A study of Mus musculus with 24 samples.

Results

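The acute phase proteins are plasma proteins that the liver secretes in changed amounts during inflammation, infection or tissue injury. The set described here holds 10 mouse genes, namely the serum amyloid A genes Saa1, Saa2, Saa3 and Saa4, the scavengers of free haemoglobin and heme Hp and Hpx, the orosomucoid genes Orm1 and Orm2, lipocalin 2 (Lcn2) and serum amyloid P component (Apcs). Members were the probe sets whose single gene symbol in the array's annotation was one of these names. This rule gave 12 of 45101 probe sets and 10 of 18193 genes. The rule itself used no measured value, but the 10 genes were chosen with earlier results of these data known. All 10 genes passed the filter on low intensity that left 13117 genes to test.

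RNA of whole liver from 24 male BALB/c mice, aged 6 weeks on arrival, was hybridised to Affymetrix 3′ expression arrays, 1 array per mouse and 6 mice per group. STZ mice had received an intraperitoneal injection of 185 mg/kg streptozotocin, an alkylating glucose analogue that destroys the insulin-producing beta cells, and then ate the purified AIN93G diet for 14 days. The 0.1% and 0.5% quercetin mice had received the same injection and ate that diet with 0.1% or 0.5% quercetin, a plant flavonol, for the same time. Control mice ate the plain AIN93G diet and were not injected, so they also lacked the injection of buffer. Injected mice entered the study only if their non-fasting glucose lay in a set range before the diets began. Mice were caged in groups of 3 and no label ties a mouse to a cage, so an effect of the cage and one of the group cannot be told apart. All tests treated the 6 mice of a group as independent.

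Hepatocytes are the main source of circulating acute phase proteins. Interleukin 6 acts on them through STAT3, and interleukin 1 and tumour necrosis factor act through NF-kB and C/EBP factors, to raise transcription of the positive acute phase genes. Saa1 and Saa2 encode the inducible forms of serum amyloid A, an apolipoprotein of high density lipoprotein, whereas Saa4 encodes the constitutive form and Saa3 is made largely outside hepatocytes. Orosomucoids are carriers of drugs and lipids in plasma, lipocalin 2 withholds iron from bacteria by binding their siderophores, and serum amyloid P component is a pentraxin and a major acute phase reactant of the mouse.

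RefSeq promoter windows of build GRCm38.p6, which run over 250 bases before and 50 bases after each gene's start, were at hand for 8 of the 10 genes, all but Hp and Orm1. Those of the 4 genes with the widest spread between mice are shown because Saa1 and Saa2 moved together across mice, as did Orm2 and Lcn2. Capitals mark the letters TTGCNNAA on either strand, a core of the C/EBP binding motif. Saa1 lies at chr7:46742931-46743230 on the minus strand, Saa2 at chr7:46751583-46751882 on the plus strand, Orm2 at chr4:63362199-63362498 on the plus strand and Lcn2 at chr2:32387690-32387989 on the minus strand.
Saa1: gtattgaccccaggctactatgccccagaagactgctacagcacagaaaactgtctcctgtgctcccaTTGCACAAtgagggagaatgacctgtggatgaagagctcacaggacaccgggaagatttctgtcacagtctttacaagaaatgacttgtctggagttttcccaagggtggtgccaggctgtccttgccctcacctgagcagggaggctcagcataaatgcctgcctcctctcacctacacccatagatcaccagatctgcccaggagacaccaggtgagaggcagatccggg
Saa2: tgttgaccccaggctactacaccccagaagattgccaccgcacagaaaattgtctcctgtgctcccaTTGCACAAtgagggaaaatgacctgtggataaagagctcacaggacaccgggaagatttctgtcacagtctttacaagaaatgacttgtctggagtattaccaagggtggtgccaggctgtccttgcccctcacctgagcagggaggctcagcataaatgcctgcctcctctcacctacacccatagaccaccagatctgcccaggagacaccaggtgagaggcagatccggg
Orm2: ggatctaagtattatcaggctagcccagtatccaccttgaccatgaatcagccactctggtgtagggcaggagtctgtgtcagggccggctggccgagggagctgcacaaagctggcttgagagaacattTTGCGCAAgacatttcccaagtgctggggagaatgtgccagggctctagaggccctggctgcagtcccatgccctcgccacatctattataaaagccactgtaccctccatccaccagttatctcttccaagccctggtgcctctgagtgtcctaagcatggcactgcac
Lcn2: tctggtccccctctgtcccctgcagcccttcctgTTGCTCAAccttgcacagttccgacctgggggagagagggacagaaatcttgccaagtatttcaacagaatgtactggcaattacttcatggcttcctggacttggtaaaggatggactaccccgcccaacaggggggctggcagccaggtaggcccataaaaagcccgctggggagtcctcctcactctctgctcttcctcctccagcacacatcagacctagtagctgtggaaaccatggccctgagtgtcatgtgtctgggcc
The Saa1 and Saa2 windows were identical at 287 of 301 aligned columns (95.4%), against 49.2% for Orm2 and Lcn2. The C/EBP letters stood at -182 in Saa1, -183 in Saa2, -120 in Orm2 and -216 in Lcn2, counted from the start site. They were found in 7 of the 8 member windows, all but that of Apcs, and in 10.8% of 32851 RefSeq promoter windows. An NF-kB motif, spelled as GGG and CC with any 5 bases between them, was found in 4 of 8 (Saa1, Saa2, Saa4 and Lcn2), against 50.8% of all windows. The letters TTCNNNGAA, a STAT motif, were found in 1 of 8 (Apcs), against 8.3%, and TATAAA in 1 of 8 (Orm2), against 13.6%. Both strands were searched for each motif and no match overlapped a match of another motif. In the RefSeq gene order the serum amyloid genes lie together on chromosome 7 as Saa3, Saa4, Saa1 and Saa2 with 2 unlisted neighbours between them, and Orm1 and Orm2 flank Orm3 on chromosome 4.

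Comparing STZ with control mice on the same diet gave the changes that went with streptozotocin. Orm2 was the 1 member of 10 that passed the test, as higher, and none passed as lower. Over all 13117 genes 2.03% passed as higher and 1.69% as lower (266 and 222 genes, which became 120 and 41 on values as deposited and 170 and 278 with median scaling), and a count of 1 in 10 is too small to set against that background. The median log2 difference was -0.03 over the members and -0.02 over all genes tested. An unadjusted p under 0.05 was reached by 4 members (Orm2, Lcn2, Apcs and Saa4), against 16.7% of all genes.

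Orm2 had a lowest, median and highest normalized intensity of 64.4, 129 and 261 in STZ mice, 71.6, 124 and 520 at 0.1% quercetin, 14.5, 87.7 and 131 at 0.5% quercetin, and 21.3, 33.6 and 101 in control mice. Control mouse 2 alone brought the control range up to 101, since the next control mouse had 39.8. STZ and control mice therefore overlapped, with 4 of 6 STZ mice above all controls, and every STZ mouse was above the other 5 controls. The log2 level averaged 7.17 ± 0.59 in STZ mice and 5.75 ± 0.59 in control mice (SD, n = 6 each). Orm2 was 2.67-fold higher in STZ mice, a log2 difference of 1.42 (SE 0.39, limma adjusted p = 0.0369). This call was marginal: leaving out single mice moved the adjusted p between 0.0157 and 0.110, and the call was lost without STZ mouse 2, 3, 5 or 6 or control mouse 1, 3, 4, 5 or 6 and held in the other 15 of 24 fits.

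Lcn2 had a lowest, median and highest intensity of 50.2, 106 and 289 in STZ mice, 105, 137 and 589 at 0.1% quercetin, 33.8, 59.3 and 119 at 0.5% quercetin, and 27.5, 46.4 and 73.4 in control mice. Of the STZ mice 5 of 6 lay above all controls. The log2 difference of Lcn2 between STZ and control mice was 1.14 (SE 0.35), 2.20-fold, and did not pass (limma adjusted p = 0.0720). It passed without 0.1% quercetin mouse 1, the highest of all mice for Lcn2 (SE 0.30, adjusted p = 0.0307), and without STZ mouse 1, the lowest of its group (adjusted p = 0.0315).

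**Figure D1:**
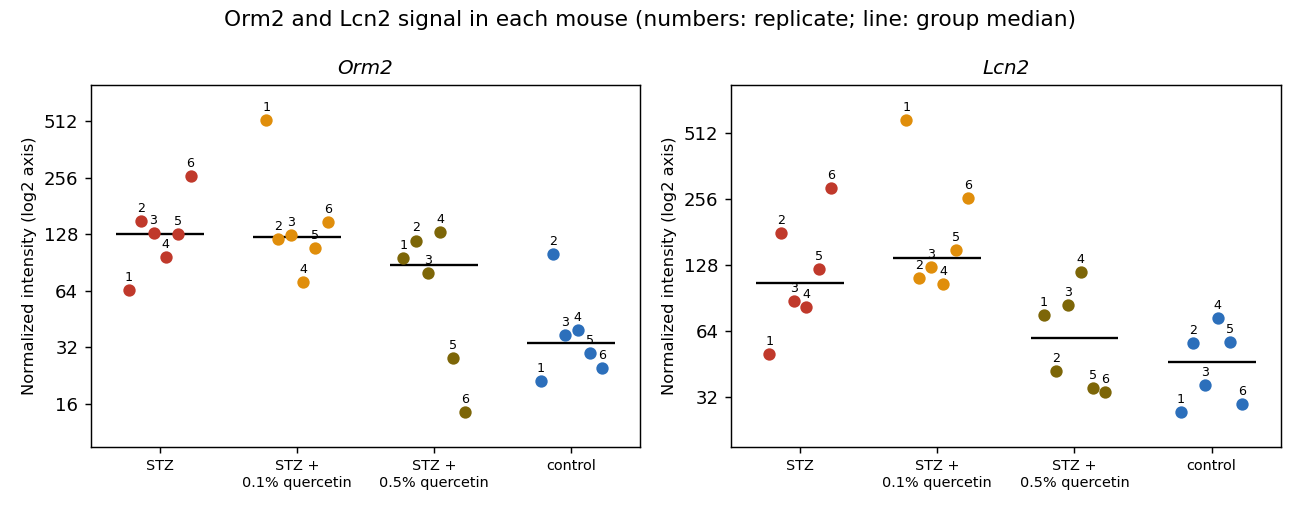
Normalized intensity of Orm2 and Lcn2 (log axis) in each of the 24 mice by group, with points numbered by replicate and a line at the group median. For both genes the medians of the STZ and 0.1% quercetin mice lie above those of the 0.5% quercetin and control mice, and 0.1% quercetin mouse 1 is the highest point.

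The STZ and control groups also differed in an array measure that moved with these results. Signal of the 3′ Gapdh probe set less that of its 5′ probe set, a log2 measure of RNA integrity and labelling, was -0.34 ± 0.10 in STZ mice, -0.32 ± 0.15 at 0.1% quercetin, -0.21 ± 0.17 at 0.5% quercetin and -0.04 ± 0.17 in control mice (SD, n = 6 each). With that difference as a covariate, Orm2 differed between STZ and control mice by 0.73 (limma adjusted p = 0.700) and Lcn2 by 0.72 (adjusted p = 0.690). The covariate is largely shared with the groups, so its part and that of streptozotocin cannot be told apart. Mean deposited intensity ranged from 61.0 to 102 over the arrays, and correlations between arrays ranged from 0.969 to 0.987.

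Neutrophils and macrophages can also make lipocalin 2, and markers of both were measured. Of 14 neutrophil markers, 8 were tested and none passed in STZ against control mice. Their summed intensity ran from 58.7 to 156 in STZ mice, 76.1 to 115 at 0.1% quercetin, 61.6 to 92.8 at 0.5% quercetin and 79.1 to 127 in control mice, and the granule gene Camp averaged 0.698 over all arrays. Of 14 macrophage and Kupffer cell markers, 13 were tested, and 4 rose in STZ mice with none lower. The summed intensity of the macrophage markers ran from 1969 to 2514 in STZ mice, 2050 to 2413 at 0.1% quercetin, 1422 to 2302 at 0.5% quercetin and 1422 to 1812 in control mice. Their part in the Orm2 and Lcn2 results was not tested. In whole liver RNA, more cells of a type and more RNA per cell cannot be told apart. Hepatocyte markers bore out the tissue label by their high intensity, except Ass1, which averaged 39.1, and of 12 tested none passed. Their sum lay between 62677 and 68262 on every array. Quantile normalization holds such bright probe sets close to shared values, so that narrow range cannot show an equal share of hepatocytes. Of 8 adipocyte markers 3 were tested and none passed. Their sum ran from 121 to 166 in STZ mice, 92.9 to 157 at 0.1% quercetin, 109 to 159 at 0.5% quercetin and 91.7 to 138 in control mice, and Adipoq, a defining marker, averaged 1.47. Of 8 erythroid markers 4 were tested and none passed in STZ against control mice, with sums of 388 to 601 in STZ, 275 to 730 at 0.1%, 441 to 733 at 0.5% quercetin and 587 to 818 in control mice.

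The inducible serum amyloid genes Saa1 and Saa2 did not pass in STZ against control mice. Saa1 had a lowest, median and highest intensity of 363, 496 and 801 in STZ mice, 525, 602 and 4189 at 0.1% quercetin, 275, 461 and 579 at 0.5% quercetin, and 380, 591 and 2985 in control mice. The highest values came from 0.1% quercetin mouse 1 and control mouse 2. Apart from these mice the ranges overlapped, with 1423 next highest at 0.1% quercetin and 839 next highest in controls. The log2 difference of Saa1 between STZ and control mice was -0.52 (SE 0.42, limma adjusted p = 0.587). Without control mouse 2 it was -0.13.

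Saa2 gave a lowest, median and highest intensity of 121, 175 and 305 in STZ mice, 182, 243 and 3043 at 0.1% quercetin, 107, 131 and 158 at 0.5% quercetin, and 61.0, 161 and 1340 in control mice. The same pair of mice stood highest. Its log2 difference between STZ and control mice was -0.11 (SE 0.54, limma adjusted p = 0.951), and 0.41 without control mouse 2. The annotation gives a second Saa1 probe set, whose listed transcript belongs to Saa2 in the RefSeq gene table. It ran from 363 to 875 in STZ mice, 505 to 4986 at 0.1% quercetin, 281 to 513 at 0.5% quercetin and 338 to 3137 in control mice. That probe set and the Saa2 probe set carry the array maker's suffixes for probes that may also bind other transcripts. Signal of Saa1 and Saa2 therefore cannot be told apart with certainty.

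Saa3 did not pass in any comparison. Its lowest, median and highest intensities were 21.6, 41.1 and 50.6 in STZ mice, 28.3, 42.9 and 64.1 at 0.1% quercetin, 19.2, 40.9 and 61.8 at 0.5% quercetin, and 25.0, 36.8 and 46.3 in control mice. The 4 groups overlapped, and the log2 difference between STZ and control mice was 0.07 (SE 0.18, limma adjusted p = 0.893). In 0.1% quercetin mouse 1 Saa3 was 28.5, near the bottom of its group.

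Saa4, the constitutive form, had a lowest, median and highest intensity of 655, 1100 and 1299 in STZ mice, 1128, 1382 and 1574 at 0.1% quercetin, 1100, 1282 and 2196 at 0.5% quercetin, and 1148, 1343 and 1842 in control mice. Of the STZ mice 5 of 6 lay below all controls. The log2 difference of -0.41 (SE 0.16) did not pass (limma adjusted p = 0.166), and the other Saa4 probe set differed by -0.26. Both quercetin groups had a mean closer to that of the controls, at 10.42 ± 0.22 with 0.1% and 10.45 ± 0.37 with 0.5% quercetin on the log2 scale, than STZ mice, at 10.01 ± 0.34, where the control mean was 10.42 ± 0.25 (SD, n = 6 in each group).

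**Figure D2:**
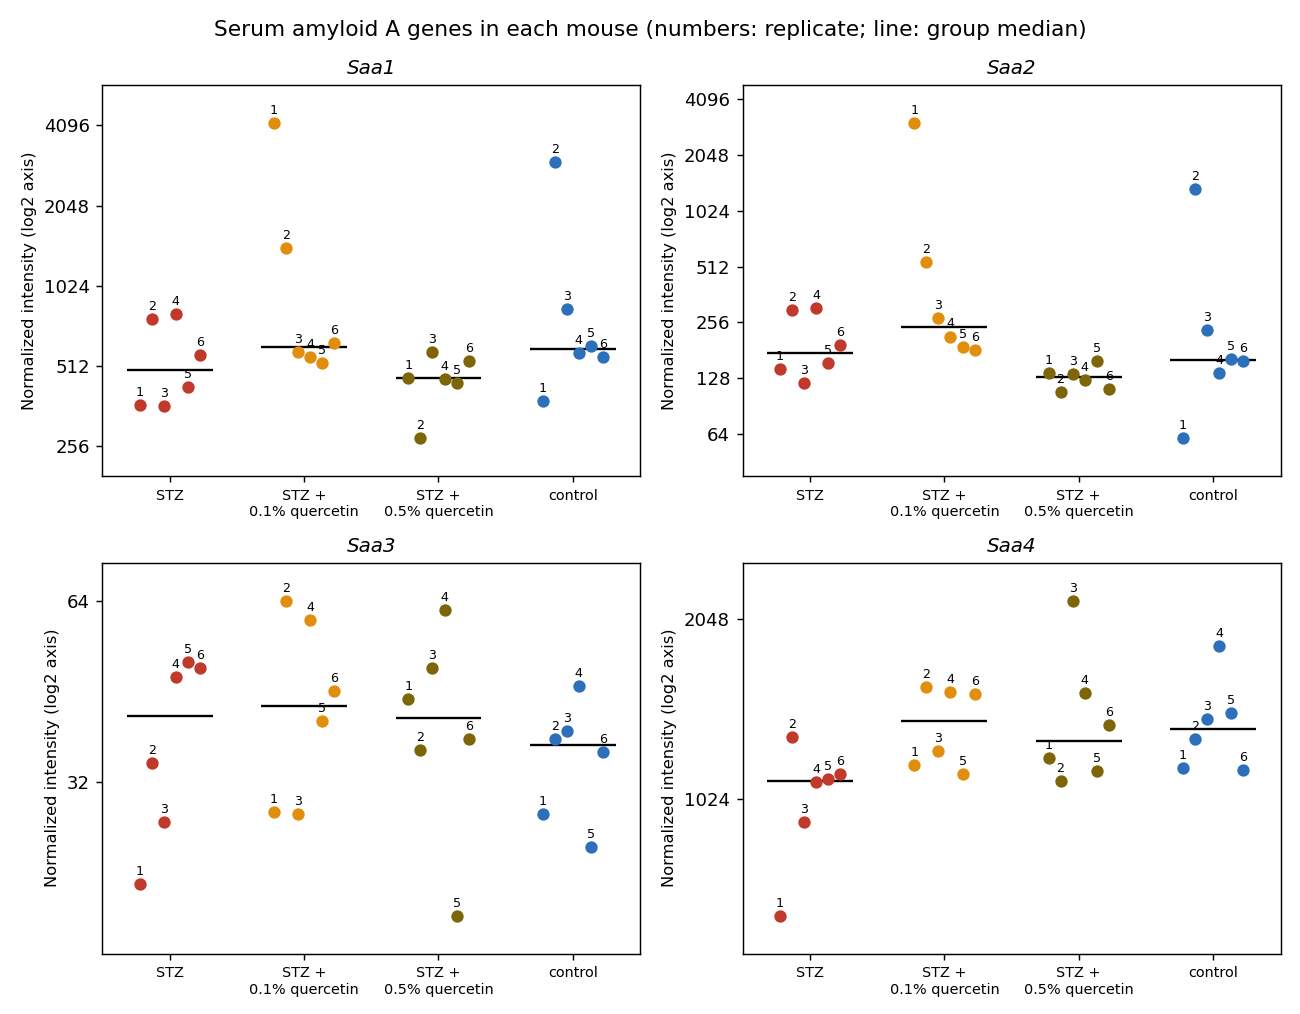
Normalized intensity of Saa1, Saa2, Saa3 and Saa4 (log axes) in each mouse by group, numbered by replicate, with a line at the group median. The 0.1% quercetin mouse 1 and control mouse 2 lie far above the rest for Saa1 and Saa2 and within the spread of all mice for Saa3 and Saa4.

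Hp, Hpx and Orm1 were the least variable members after quantile normalization, which holds the brightest probe sets close to shared values. They stood at the 99.83, 99.92 and 99.62 percentiles of probe set means. As deposited, Hpx ran from 4449 to 6520 over all mice, a range that also carries the brightness of each array. The sign of its difference between STZ and control mice depended on the scaling. Hp encodes haptoglobin, which binds free haemoglobin, and had a lowest, median and highest intensity of 3256, 3820 and 3924 in STZ mice, 3858, 3986 and 4249 at 0.1% quercetin, 3521, 3631 and 3909 at 0.5% quercetin, and 3629, 3945 and 4373 in control mice. Hpx encodes hemopexin, which binds free heme, and ranged from 5159 to 5805 in STZ mice, 5385 to 6038 at 0.1% quercetin, 5243 to 5805 at 0.5% quercetin and 5159 to 5641 in control mice. Orm1 ranged from 2567 to 2967 in STZ mice, 2441 to 3641 at 0.1% quercetin, 2231 to 3070 at 0.5% quercetin and 2173 to 3245 in control mice. For these genes the groups overlapped and STZ mice differed from control mice by -0.08 (SE 0.06), 0.02 (SE 0.06) and 0.14 (SE 0.10), in the order Hp, Hpx and Orm1, and none passed (limma adjusted p of 0.582, 0.909 and 0.539). The 95% intervals of these log2 differences reached from -0.21 to 0.05 for Hp, -0.10 to 0.14 for Hpx and -0.07 to 0.35 for Orm1. The interval of the Orm2 difference, 0.62 to 2.21, lay above that of Orm1. The difference between the 2 genes was not itself tested, and Orm1, Orm2 and their neighbour Orm3 are related in sequence, so cross-hybridisation among them is possible.

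Apcs had a lowest, median and highest intensity of 1666, 2105 and 2414 in STZ mice, 1911, 2176 and 3160 at 0.1% quercetin, 1758, 2162 and 3018 at 0.5% quercetin, and 2361, 2696 and 3094 in control mice. Of the STZ mice 5 of 6 lay below all controls, and the medians of all 3 injected groups lay below the lowest control. The log2 difference between STZ and control mice was -0.38 (SE 0.13) and did not pass (limma adjusted p = 0.0993). It passed when each array was divided by its median (adjusted p = 0.0402), in a fit of these groups alone (0.0341) and without 0.5% quercetin mice 5 and 6 (0.0454). The highest Apcs values in the quercetin groups belonged to 0.1% quercetin mouse 1, at 3160, and to 0.5% quercetin mice 6 and 5, at 3018 and 2683.

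**Figure D3:**
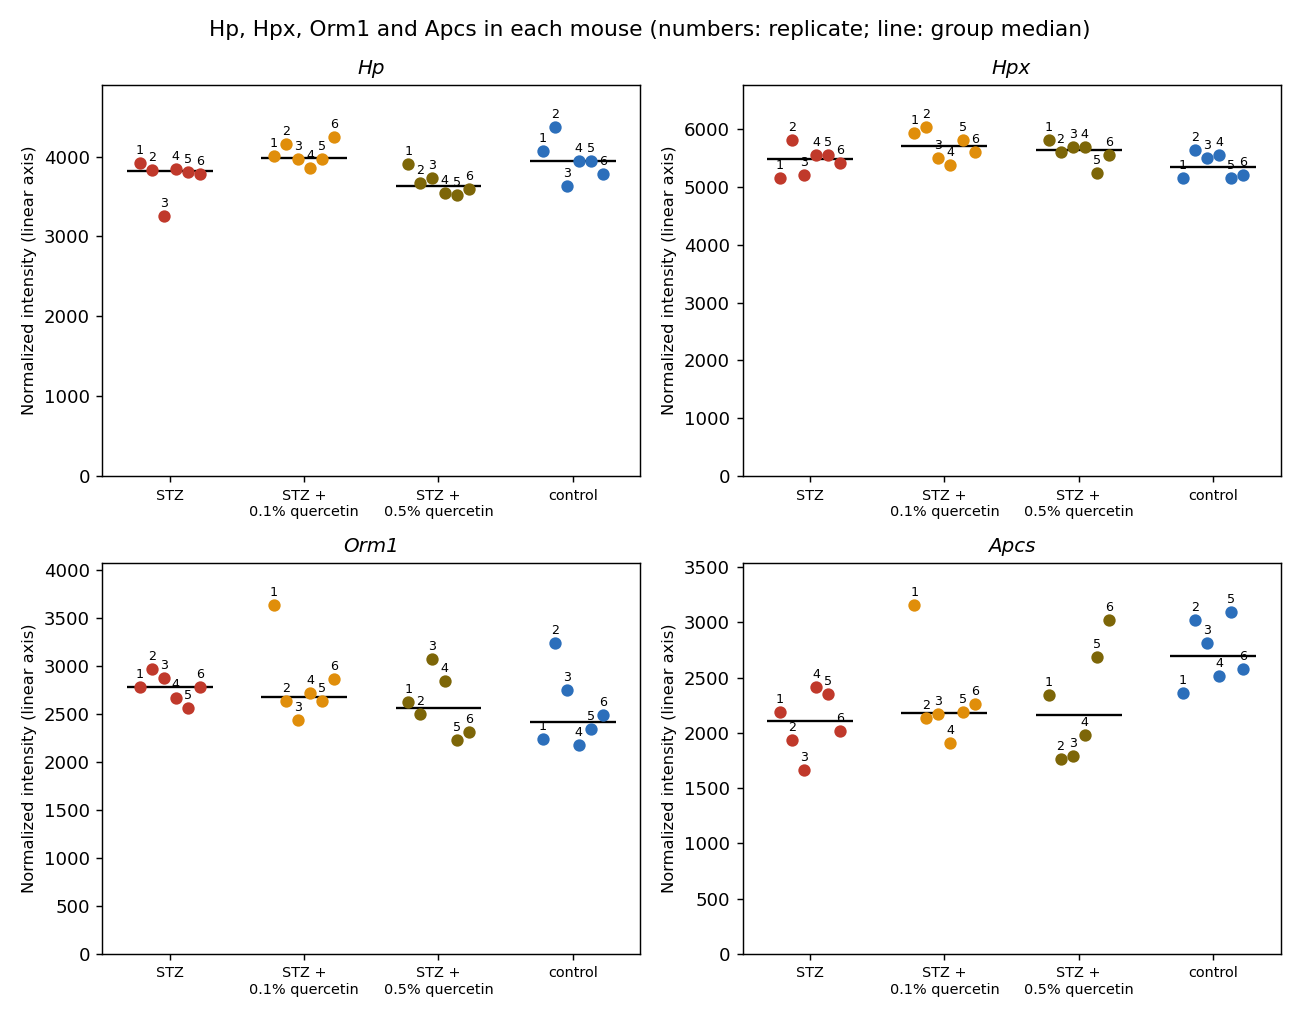
Normalized intensity of Hp, Hpx, Orm1 and Apcs (linear axes that start at 0) in each mouse by group, numbered by replicate, with a line at the group median. Hp and Hpx lie in narrow bands in all groups, which quantile normalization can narrow for such bright probe sets. The Apcs medians of the 3 injected groups lie below every control mouse.

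Comparing quercetin-fed with plain-diet STZ mice gave no call. At 0.1% quercetin none of the 10 members passed in either direction, and neither did any of the 13117 genes (0%). All 10 members had a positive log2 difference, against 52.1% of all genes, with a median of 0.16 against 0.01. Members that vary together across mice are not independent, and several of these differences rested on 1 mouse. The difference between 0.1% quercetin and STZ mice was 0.82 (SE 0.42) for Saa1, 0.97 (SE 0.54) for Saa2, 0.57 (SE 0.35) for Lcn2, 0.41 (SE 0.16) for Saa4 and 0.18 (SE 0.39) for Orm2, with limma adjusted p between 0.885 and 0.998. Without 0.1% quercetin mouse 1 the Saa1 difference was 0.38 and the Saa2 difference 0.39, and the Orm2 difference turned to -0.16. Unadjusted p under 0.05 was reached by 1 member, Saa4, against 5.24% of genes.

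At 0.5% quercetin none of the 10 members passed against STZ mice, and again no gene did (0%). Orm2 had a mean log2 level of 6.34 ± 0.93 at 0.5% quercetin and 7.17 ± 0.59 in STZ mice (SD, n = 6 each), a difference of -0.83 (SE 0.39, limma adjusted p = 0.637). Lcn2 had 6.24 ± 0.59 at 0.5% quercetin and 7.06 ± 0.78 in STZ mice, a difference of -0.82 (SE 0.35, limma adjusted p = 0.592). The ranges overlapped, with 2 of 6 mice at 0.5% quercetin below all STZ mice for Orm2 and 3 of 6 for Lcn2. Saa4 differed by 0.44 (SE 0.16, limma adjusted p = 0.572). Unadjusted p under 0.05 was reached by these 3 members, against 7.51% of genes.

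The 0.5% quercetin group was not uniform. Mice 5 and 6 had Orm2 intensities of 28.1 and 14.5, whereas mice 1 to 4 ran from 80.0 to 131. On the first principal component of all genes, mice 5 and 6 lay at -17.2 and -19.2, within or beside the control range of -18.3 to -13.5, whereas no STZ mouse lay below -0.86. Their Gapdh 3′ minus 5′ differences of -0.06 and 0.01 lay within the control range of -0.18 to 0.28. Without these mice the Orm2 difference between the 0.5% quercetin and STZ groups was -0.25 (SE 0.37) and that of Lcn2 -0.53 (SE 0.39).

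The quercetin doses were also set against each other. None of the 10 members passed and no gene did (0%), although 5 members had an unadjusted p under 0.05, against 8.34% of genes. The difference between the 0.5% and 0.1% quercetin mice was -1.39 for Lcn2 (SE 0.35, limma adjusted p = 0.355), with 5 of 6 mice at 0.5% below all mice at 0.1%. For Saa2 it was -1.49 (SE 0.54, adjusted p = 0.480), and 6 of 6 mice at 0.5% lay below all mice at 0.1%, a separation in that direction found for 0.175% of all genes. Without 0.1% quercetin mouse 1 the Saa2 difference was -0.91. Saa1 differed by -1.03 (SE 0.42, adjusted p = 0.530), Orm2 by -1.01 (SE 0.39, adjusted p = 0.508) and Hp by -0.14 (SE 0.06, adjusted p = 0.566). Leaving out 0.1% quercetin mouse 1 gave -0.59 for Saa1, -0.66 for Orm2 and -1.07 for Lcn2. Saa1 and Saa2 varied together across mice, as did Orm2 and Lcn2, so the 5 members are not independent.

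**Figure D4:**
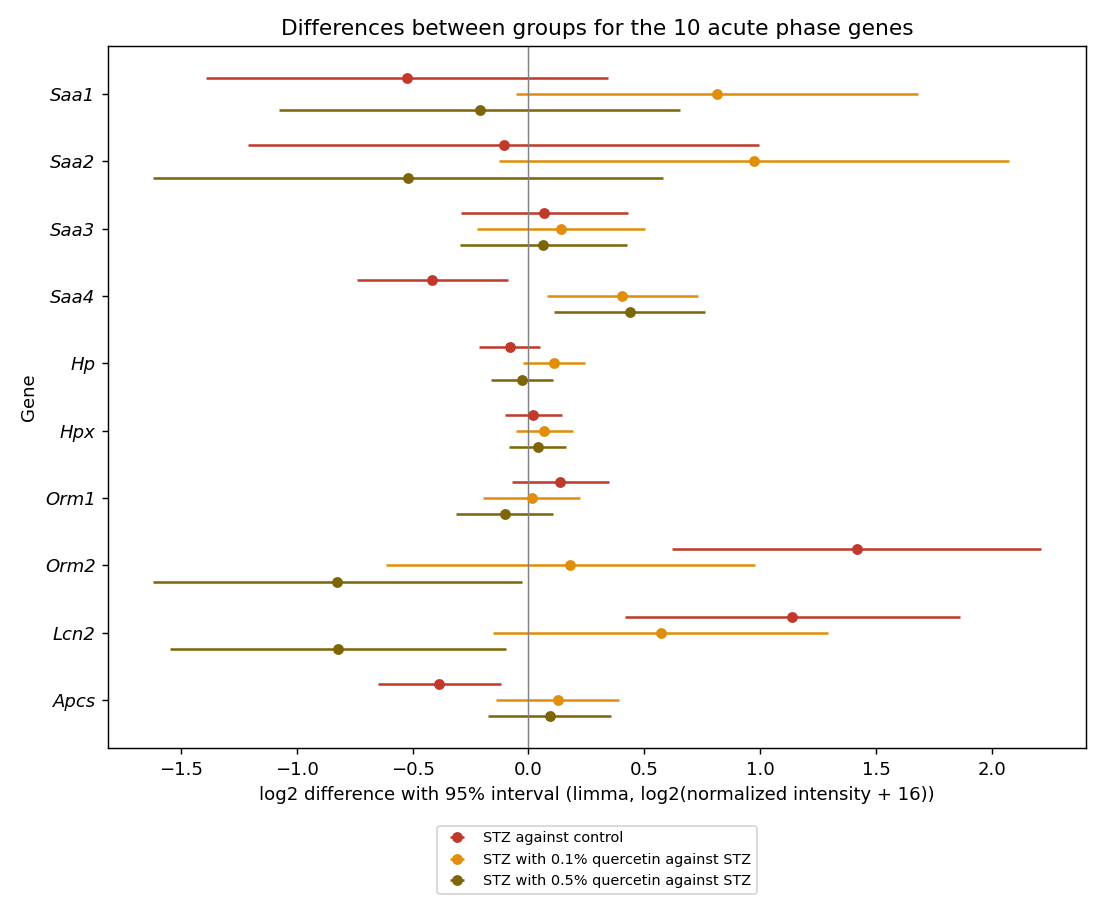
Log2 differences with 95% intervals from the limma fit for the 10 genes in 3 comparisons (STZ against control, and each quercetin group against STZ). Only the Orm2 difference between STZ and control mice, 1.42, passed the adjusted threshold.

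Each quercetin group was also compared with the controls. These comparisons share the control mice with the one above, so their agreement is not independent. In 0.1% quercetin mice Lcn2 and Orm2 rose, 2 of 10 members, with none lower, against 2.94% and 2.64% of all genes higher and lower (385 and 346, or 222 and 539 with median scaling). Lcn2 was 3.27-fold higher at 0.1% quercetin, a log2 difference of 1.71 (SE 0.35, limma adjusted p = 0.00401), and 6 of 6 mice lay above all controls, a separation found for 2.1% of genes. Orm2 was 3.03-fold higher, by 1.60 (SE 0.39, limma adjusted p = 0.0129), with 5 of 6 mice above all controls. Both calls held in all 24 fits that left out 1 mouse. In the same comparison 5 of 13 macrophage and Kupffer cell markers rose (Cd5l, C1qa, C1qb, Cd68 and Mpeg1) and none fell, the erythroid gene Alas2 fell by 0.84 in log2 units (adjusted p = 0.0206), and their part was not tested. With the Gapdh covariate the differences were 1.33 for Lcn2 (adjusted p = 0.196) and 0.97 for Orm2 (adjusted p = 0.387). In 0.5% quercetin mice no member passed against controls, and 0.0534% and 0.0762% of genes were higher and lower (7 and 10, or 37 and 649 with median scaling and 2 and 6 as deposited). There Orm2 differed by 0.59 (SE 0.39, limma adjusted p = 0.571) and Lcn2 by 0.32 (SE 0.35, adjusted p = 0.765). Apcs differed by -0.26 (SE 0.13, adjusted p = 0.286) at 0.1% and -0.29 (SE 0.13, adjusted p = 0.350) at 0.5% quercetin, and neither passed.

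In 2 mice several members were high together. In 0.1% quercetin mouse 1 the intensity relative to the median of the other 5 mice of its group was 14.2-fold for Saa2, 7.26-fold for Saa1, 4.70-fold for Lcn2, 4.31-fold for Orm2, 1.46-fold for Apcs and 1.38-fold for Orm1. In control mouse 2 it was 8.43-fold for Saa2, 5.19-fold for Saa1, 3.39-fold for Orm2, 1.54-fold for Lcn2, 1.38-fold for Orm1 and 1.17-fold for Apcs. Saa3 was 0.630-fold in the quercetin mouse and 1.05-fold in the control mouse, and Hp, Hpx and Saa4 lay between 0.764-fold and 1.11-fold in both. Of 8 neutrophil markers, 5 were more than 1.5-fold above the median of the other mice in control mouse 2 and none below, against 8.27% of all genes above. In 0.1% quercetin mouse 1, 3 were above and 1 below, against 8.65% of all genes above. In 0.5% quercetin mice 5 and 6, set against mice 1 to 4, 3 were above in each, and 4 and 2 were below. These markers averaged between 5.39 and 23.0 in intensity, near or under the constant of 16, where such ratios are unsteady. Their part was not tested. In 0.5% quercetin mice 5 and 6 the members lay otherwise, with Orm2 at 0.262-fold and 0.136-fold and Lcn2 at 0.440-fold and 0.422-fold of the median of mice 1 to 4, while Saa1 was at 0.964-fold and 1.16-fold and Apcs at 1.42-fold and 1.60-fold. There 8 and 7 of 13 macrophage and Kupffer cell markers were more than 1.5-fold below, against 14% and 16.4% of all genes.

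**Figure D5:**
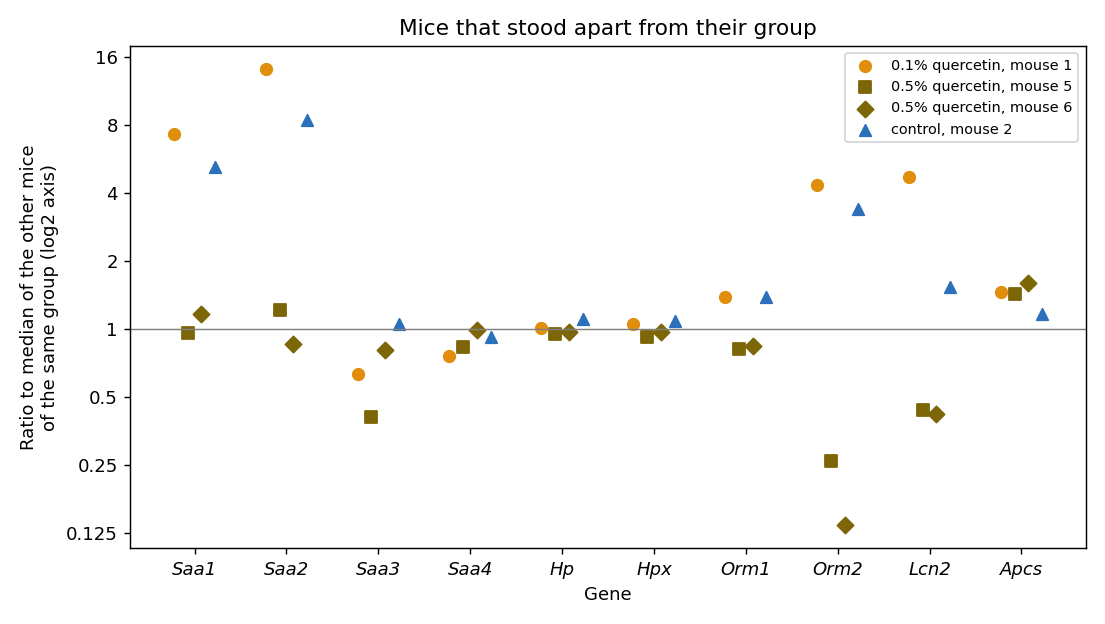
Intensity of each of the 10 genes relative to the median of the other mice of the group (log axis) in the mice that lay apart: 0.1% quercetin mouse 1, 0.5% quercetin mice 5 and 6, and control mouse 2. Saa2 and Saa1 are the highest points in 0.1% quercetin mouse 1 and control mouse 2, and Orm2 is the lowest in 0.5% quercetin mice 5 and 6.

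Covariation within the groups was described by deviations of each mouse from its group mean on the log2 scale, over 24 mice and all 45 pairs of members. Permutation p-values came from shuffling mice within groups and were adjusted over the 45 pairs. The 2 mice farthest out were taken from the first-named gene of a pair, by distance from its median over all mice. Mice far out for the second gene could therefore stay in. Saa1 and Saa2 had r = 0.967 and rho = 0.917 (both p = 1e-05, the smallest the permutations can give, adjusted p = 0.00045 and 0.000225), and r = 0.876 without the 2 mice farthest out. Orm2 and Lcn2 had r = 0.809 and rho = 0.824 (permutation p = 2e-05 and 1e-05, adjusted p = 0.00045 and 0.000225), and r = 0.718 without the farthest 2. Saa3 and Saa4 had r = 0.654 and rho = 0.698 (permutation adjusted p = 0.0156 and 0.00975), and r = 0.627 without the farthest 2. Saa1 and Orm2 had r = 0.564 and rho = 0.397 (permutation adjusted p = 0.042 and 0.175), and r = 0.0385 once 0.1% quercetin mouse 1 and control mouse 2 were left out, so that relation rested on these mice. In all, 14 pairs passed by Pearson's r and 7 by both measures. The 7 also held Saa1 and Hpx (r = 0.617), Saa2 and Hpx (r = 0.547), Hpx and Orm2 (r = 0.555), and Orm1 and Orm2 (r = 0.706). Without the 2 mice farthest out these were 0.624, 0.529, 0.584 and 0.456, in that order. Any signal shared by the Saa1 and Saa2 probe sets would bear on their correlation directly.

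Over the genes tested outside the 10 members, the deviations most like those of Lcn2 were those of Nnmt, a nicotinamide methyltransferase (r = 0.83), and of the metallothioneins Mt2 (r = 0.80) and Mt1 (r = 0.79), followed by Smim22 (r = 0.78) and Ubp1 (r = 0.76). Outside the members, the deviations most like those of Saa1 belonged to Slc35c2 (r = 0.72), Rab11fip4 (r = 0.71), Pimreg, Mylk3 and Abcb10 (r = 0.69 each). Each of these genes had its highest intensity within the pair of mice that stood highest for Saa1, and r without that pair was not computed. Pimreg and Mylk3 were dim, with medians of 6.98 and 5.11 over all mice. Both lists hold the largest r among all genes tested, and whether chance gives values as large was not tested. These are descriptions over the same 24 arrays.

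Further genes of the acute phase response were compared in STZ and control mice. Of 24 other positive acute phase genes tested, 2 rose and none fell, with a median difference of 0.05 against -0.02 over all genes. Serpina3n, a serine protease inhibitor, rose by 0.37 (SE 0.10, limma adjusted p = 0.0316), with log2 means of 10.24 ± 0.11 in STZ and 9.87 ± 0.10 in control mice (SD, n = 6 each) and 6 of 6 STZ mice above all controls. Cd14, the lipopolysaccharide co-receptor, rose by 0.37 (SE 0.10, adjusted p = 0.0412). The metallothioneins Mt1 and Mt2 differed by 1.10 (SE 0.46, adjusted p = 0.212) and 1.09 (SE 0.35, adjusted p = 0.0801), and Il18bp, which binds interleukin 18, by 0.42 (adjusted p = 0.0763). Crp, Hamp and the fibrinogen chains Fga and Fgb differed by 0.04, 0.05, 0.03 and 0.01, and none passed.

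Negative acute phase genes, whose products usually decline in inflammation, gave 2 higher and 1 lower of 15 tested, with a median of 0.03. Hrg, histidine-rich glycoprotein, rose by 0.42 (SE 0.09, limma adjusted p = 0.00749), and Serpina6, corticosteroid-binding globulin, rose by 0.67 (SE 0.17, adjusted p = 0.0268). Igfals, the acid-labile subunit that carries insulin-like growth factors, fell by 0.47 in log2 units (SE 0.11, adjusted p = 0.0130) and lay below all controls in 6 of 6 STZ mice. Albumin (Alb) and transthyretin (Ttr) differed by 0.03 and -0.01.

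Among cytokines and their receptors 13 of 18 were tested, none rose and 1 fell. Il1rap, the accessory chain of the interleukin 1 receptor, fell by 0.31 in log2 units (SE 0.08, limma adjusted p = 0.0173), below all controls in 6 of 6 STZ mice. Il6, Tnf, Lif and Il11 lay under the filter on low intensity. The interleukin 6 receptor gene Il6ra differed by 0.39 (adjusted p = 0.350) and Il1r1 by -0.30 (adjusted p = 0.403).

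Of 24 signalling genes and transcription factors tested, 1 rose and 1 fell. Jak1, a kinase of the interleukin 6 receptor, rose by 0.29 (SE 0.08, limma adjusted p = 0.0453), and Cebpa, a C/EBP factor of mature hepatocytes, fell by 0.59 in log2 units (SE 0.15, adjusted p = 0.0280) with 5 of 6 STZ mice below all controls. Nfkbiz, a nuclear partner of NF-kB, differed by 0.28 (adjusted p = 0.0835), Stat3 by 0.18 (adjusted p = 0.505) and its feedback inhibitor Socs3 by 0.39 (adjusted p = 0.590). On a list of 10 genes that held receptors for acute phase proteins and the enzyme gene Hmox1, 1 rose. This was Cd36, a scavenger receptor that also takes up fatty acids, by 2.14 (SE 0.37, limma adjusted p = 0.00147) in 6 of 6 STZ mice above all controls. Fpr2, a receptor for serum amyloid A, differed by 0.43 (adjusted p = 0.0914), and Lrp1, through which hemopexin and heme are taken up, by -0.12 (adjusted p = 0.523). With the Gapdh covariate, applied to the lists after their values were seen, none of the 9 calls from these lists in STZ against control mice passed (limma adjusted p between 0.313 and 0.767), nor did the 4 macrophage markers (0.466 to 0.688).

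In 0.1% quercetin against control mice 4 of the 24 other positive acute phase genes rose and none fell. Mt1 rose by 2.02 (limma adjusted p = 0.00869), Mt2 by 1.53 (adjusted p = 0.00814), Lbp, the lipopolysaccharide-binding protein, by 0.51 (adjusted p = 0.0367) and Serpina3n by 0.42 (adjusted p = 0.0104). The negative acute phase genes gave Serpina6 and Hrg higher and Igfals lower, Il1rap fell by 0.37 in log2 units (adjusted p = 0.00355), and Jak1 and Cd36 rose by 0.33 and 2.10. With the Gapdh covariate none of these 10 calls passed (limma adjusted p between 0.139 and 0.425), nor did the macrophage and erythroid markers (0.249 to 0.589). No gene of these 5 lists passed in 0.1% quercetin against STZ, 0.5% quercetin against STZ, 0.5% against 0.1% quercetin, or 0.5% quercetin against control mice. Socs3 differed between 0.5% quercetin and STZ mice by -0.72 (SE 0.31, limma adjusted p = 0.610), with 5 of 6 mice at 0.5% below all STZ mice.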

How the data were processed

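The members and the gene lists were chosen with earlier results of these data known. The deposited values were linear intensities per probe set and array, made by the authors from biotin-labelled cRNA, per the labels' protocols. The summary algorithm, any scaling and the genome build are not given in the sources used here, so the target of any scaling stays unknown. Of 45101 probe sets, 64 were controls and 34958 had 1 gene symbol in the platform annotation. Intensities were quantile normalized over 24 arrays, which places probe sets on shared values by rank, and turned into log2(value + 16). The constant of 16 understates folds of dim genes. Each gene was represented by its brightest probe set, and those under the 40th percentile of means were left out. Groups (6 mice each, from the sample titles) were compared in 1 limma fit (version 3.58.1, R 4.3.3) of 4 group means. Tests were two-sided and Benjamini-Hochberg adjusted over 13117 genes, with a threshold of 0.05. The fit of STZ against control mice was tested on simulated gene levels with normally distributed noise. Normalization, filter and probe set choice were not tested in that way. Named were all 10 members and, of each list, the 3 with the smallest p in STZ against control mice and those past the threshold; Crp, Hamp, Fga, Fgb, Alb, Ttr, Stat3 and Socs3 were added after their values were seen. Alternatives were scaling, constant, filter, probe set choice, groups fitted, trend, array weights, Gapdh covariate, replicate block and mice left out. The number of arrays limits the precision.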

Additional observations from a re-analysis of the deposited data

Results flagged for a closer look

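Each gene and group of 6 mice was checked for a mouse far from the rest, by the gap to its nearest neighbour as a share of the group's range. Of 40 groups 5 exceeded Dixon's 95% critical value for 6 mice, where chance flags about 1 in 20. For Orm2 these were 0.1% quercetin mouse 1, at an intensity of 520 with a gap of 0.654 of the range, and control mouse 2, at 101 with a gap of 0.648. The same 0.1% quercetin mouse stood apart for Apcs, at 3160 with a gap of 0.668. STZ mouse 3 was low for Hp, at 3256 with a gap of 0.797, and 0.5% quercetin mouse 2 was low for Saa1, at 275 with a gap of 0.641. The check runs on the log2 scale, and the reasons were not tested.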

How the results depend on the processing

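In STZ against control mice the count of members that passed, 1 in the report, was 0 with a constant of 1 or 64, without the filter, with every probe set as a feature, with the Gapdh covariate and with the replicate number as a block (Orm2 adjusted p of 0.0701, 0.0747, 0.0569, 0.0851, 0.700 and 0.0534). It was 2 with median scaling, array weights, without 0.5% quercetin mice 5 and 6, and without control mouse 2 and 0.1% quercetin mouse 1 (chosen after seeing the data), and 3 with these groups alone. Leaving out single mice gave 0 to 2. In 0.1% quercetin against control mice the count of 2 became 0 with the Gapdh covariate, and in 0.5% quercetin against control mice the count of 0 became 1 (Apcs) with median scaling and without mice 5 and 6. The block moved no other count. Same-numbered mice of other groups correlated between -0.14 and 0.32 (36 pairs), and mice with other numbers between -0.30 and 0.25 (180 pairs). Of 24 arrays, 5 matched best with their own number. The labels do not say whether the numbers pair the mice or mark an order of processing, and these values cannot settle it. Over all genes the STZ against control calls, 488 in the report, numbered 161 as deposited, 787 with array weights and 6 with the Gapdh covariate. The 731 calls of 0.1% quercetin against control mice became 217 as deposited and 4 with that covariate, and the 17 of 0.5% quercetin against control mice ranged from 0 with these groups alone to 686 with median scaling.

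Differences that changed sign were all small or rested on single mice. As deposited, Orm1 at 0.1% quercetin against STZ was -0.033, and at 0.5% against STZ Saa3 was -0.031 and Apcs -0.018. With median scaling Saa3 was -0.018 there, and Hpx in STZ against control mice -0.12, or -0.10 with trimmed mean scaling, which put Hp at 0.5% against STZ at 0.071. Saa2 in STZ against control mice was 0.064 with the Gapdh covariate and 0.41 without the high pair of mice, which put Orm1 and Orm2 at 0.1% against STZ at -0.062 and -0.16. Apcs at 0.5% against STZ was -0.087 without mice 5 and 6. Leaving out 1 mouse moved Saa2 in STZ against control mice between -0.41 and 0.41 (positive without control mouse 2 or STZ mouse 3). It moved Orm1 and Orm2 at 0.1% against STZ between -0.062 and 0.053 and between -0.16 and 0.37 (negative without 0.1% mouse 1, Orm1 also without STZ mouse 5), and Saa3 at 0.5% against STZ between -0.035 and 0.20 (negative without STZ mouse 1 or 0.5% mouse 4). Where no value above shows it, the cause was not tested.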

Other observations

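Pathway genes were read in the mice that lay apart, each against the median of the other mice of its group. In 0.1% quercetin mouse 1, 4 of 24 other positive acute phase genes were more than 1.5-fold above that median, against 8.65% of all genes tested, among them Mt2 (2.80-fold), Mt1 (2.01-fold) and Il1rn (1.76-fold), and Socs3 was 1.81-fold. The group's highest value came from another mouse for Mt2 (328 against 293), Mt1 (1264 against 736) and Socs3 (203 against 122), and Il1rn was dim at 27.7. In control mouse 2, 2 of 24 were above, against 8.27% of all genes, namely Il1rn (1.52-fold) and Cd14 (1.53-fold), and Socs3 was 1.98-fold. Il1rn and Cd14 were dim, at 25.7 and 25.5, and another control mouse was higher for Socs3 (158 against 67.4). The 8 neutrophil markers tested, all dim, had a median of 1.53-fold in control mouse 2 and 1.34-fold in 0.1% quercetin mouse 1. Their median was 0.877-fold and 1.24-fold in 0.5% quercetin mice 5 and 6. In 0.5% quercetin mice 5 and 6 none of the 24 was above and 3 (12.5%) were below in each, against 14% and 16.4% of all genes below, and Cd36, which rose in STZ mice, was 0.203-fold and 0.0845-fold of the median of mice 1 to 4. Of the 10 genes on the receptor list, 5 and 6 were more than 1.5-fold below in these mice, against the same 14% and 16.4%. Most were too dim for steady ratios, with Fpr2 at 5.21 and 2.36 and Ager at 0.903 and 1.79 in mice 5 and 6. Tlr2 in mouse 5, at 5.55, and Tlr4 and Slc22a17 in mouse 6, at 4.01 and 4.16, were dim as well. The others were Cd36, at 33.7 and 14.0, and the enzyme gene Hmox1, at 14.6 and 20.1. Macrophage and Kupffer cell markers, whose list shares Cd163 with the receptors, were at a median of 0.598-fold and 0.615-fold there, and their part was not tested. The mice were chosen for their member values or their place on the principal component, so these are descriptions with no test.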
